A study of Bos taurus with 9 samples.

Results

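The red blood cell miRNAs bta-miR-451, bta-miR-144 and bta-miR-486, were followed across small RNA libraries of bovine rectal tissue as a measure of blood in the biopsies. They were chosen by name and make up 3 of the 515 mature miRNAs in the table. The libraries, 1 per animal, came from 4 steers negative for E. coli O157 (NS) and 5 super-shedder steers (SS), whose feces held more than 10000 colony-forming units of it per g. The NS steers were pen-mates of the SS steers, which had been identified days before slaughter, and not every SS steer was still above this level when killed. Whole rectal wall from just above the junction with the anus was frozen after death. Each library therefore mixes epithelium, muscle, lymphoid tissue, vessels and any blood in them, and more red cells cannot be told apart from more of these miRNAs per cell.

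Mature red cells have no nucleus but keep a store of small RNAs. In vertebrates miR-451 and miR-144 are made from 1 primary transcript that is switched on by GATA1 as erythroid cells mature. miR-451 is cut by Argonaute2 rather than by Dicer, and mice without it make red cells that tolerate oxidative stress poorly. miR-144 is known in human erythroid cells to lower NRF2, a regulator of antioxidant genes. miR-486 lies within ANK1, the gene of a membrane skeleton protein of red cells, and is also found in striated muscle, so it marks blood less strictly than the others. In the ARS-UCD2.0 annotation of the bovine genome MIR451 and MIR144 are next to each other, between ERAL1 and FLOT2, and MIR486 lies within ANK1.

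All 3 miRNAs were detected in all 9 libraries, and for each of them the highest library was NS steer 242. The abundance is given as CPM, reads scaled to the library total as deposited, with a 95% Clopper-Pearson interval where shown. The library totals were 650726 to 6314556 reads, so that 1 read was worth 0.158 to 1.54 CPM. NS steer 242 was among the shallow libraries, with 896649 reads, and its column exceeded the library total by 8.94% against 2.49% to 3.54% in the others, which reads standing under more than 1 miRNA would give. None of the 3 members had another row within 15% of its own value in every library.

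The abundance of bta-miR-451 in NS was 29.2 CPM in steer 108, 48.8 CPM in steer 152, 22.9 CPM in steer 165 and 615.6 CPM in steer 242. In SS it was 57.7 CPM in steer 274, 55.3 CPM in steer 287, 70.6 CPM in steer 294, 73.9 CPM in steer 299 and 31.4 CPM in steer 310. Thus NS held both the highest and the lowest library, and the 5 SS libraries lay between them. The interval of NS steer 242 was 565 to 669 CPM from 552 reads, 8.33 times the next library (SS steer 299, 64.8 to 84.0 CPM). Of the 8 steps from one library to the next in the order, 6 lay within overlapping intervals, and the only other clear step was from NS steer 152 down to SS steer 310.

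For bta-miR-144 the reads were few, 2 to 24 per library. The NS libraries held 3.07 CPM in steer 108, 3.76 CPM in steer 152, 2.16 CPM in steer 165 and 26.8 CPM in steer 242. The SS libraries held 3.15 CPM in steer 274, 1.48 CPM in steer 287, 1.35 CPM in steer 294, 4.07 CPM in steer 299 and 0.633 CPM in steer 310. Again a single library stood above the rest. Its interval, 17.1 to 39.8 CPM, did not reach that of SS steer 299, 2.17 to 6.96 CPM, whereas the intervals of the other 7 neighbours in the order overlapped. An order between neighbours among the other 8 libraries was not detectable at this depth. The 2 reads of NS steer 108 allow 0.372 to 11.1 CPM.

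The most abundant member was bta-miR-486. In NS its values were 464 CPM in steer 108, 319.7 CPM in steer 152, 243.5 CPM in steer 165 and 2391 CPM in steer 242. In SS they were 495 CPM in steer 274, 268.6 CPM in steer 287, 350.5 CPM in steer 294, 583 CPM in steer 299 and 245.9 CPM in steer 310. With 302 to 2198 reads per library its order was the best resolved, and 4 of the 8 neighbours had intervals that did not overlap. NS steer 242 was 4.10 times SS steer 299, the next in order. It ranked 48th by abundance among the miRNAs of NS steer 242 and between the 52nd (SS steer 274) and the 96th (SS steer 287) in the others.

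**Figure D1:**
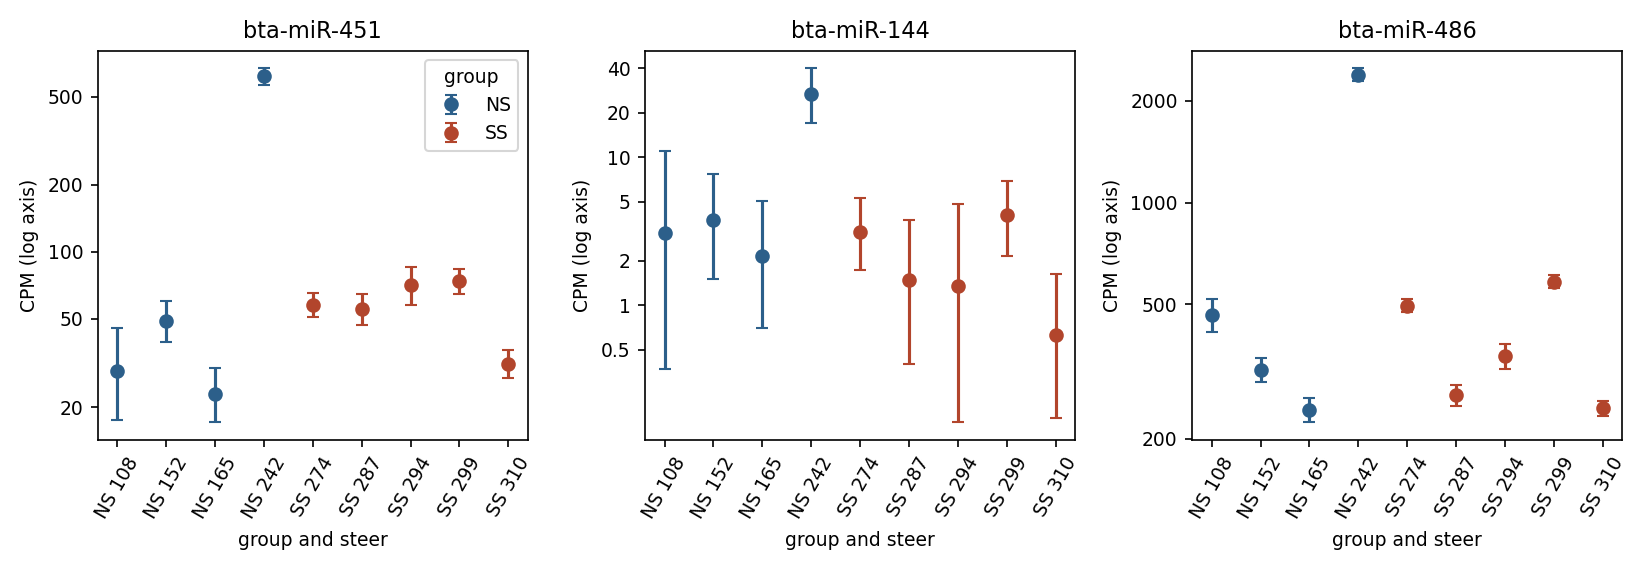
Abundance of bta-miR-451, bta-miR-144 and bta-miR-486 in CPM on log axes, 1 point per library with its 95% Clopper-Pearson interval, NS in blue and SS in red. NS steer 242 is the highest library in each panel, at 615.6, 26.8 and 2391 CPM, and the other 8 libraries of both groups lie together.

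Together the 3 miRNAs took 0.303% of the library total in NS steer 242 and 0.0269% to 0.0661% in the other 8 libraries. bta-miR-486 made up 78.8% of this sum in NS steer 242 and 82.5% to 93.5% elsewhere. On the log2(CPM + 1) scale the SD over all 9 libraries was 1.37 for bta-miR-451, 1.16 for bta-miR-144 and 1.02 for bta-miR-486, beside a median of 0.91 over the 245 miRNAs with at least 5 CPM in 4 libraries or more. Without NS steer 242 the SD of the members was 0.61, 0.57 and 0.48.

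NS steer 242 was also the highest of the 9 libraries for 126 of these 245 miRNAs, or 51.4%, so that being highest there is common. The members stood above this shift. On the log2(CPM + 1) scale the median of the 245 was 1.09 above the median of the other 8 libraries, whereas bta-miR-451 was 3.54, bta-miR-144 2.94 and bta-miR-486 2.83 above it, ranks 5, 11 and 11 when each is placed among the 245. After TMM scaling, which sets libraries level on the bulk of their miRNAs, the median of the 245 was -0.01, and 56 of them, or 22.9%, were highest in NS steer 242. The members were still highest there, at 2.58 for bta-miR-451, 2.07 for bta-miR-144 and 1.89 for bta-miR-486. The next library came closer, however. In TMM-scaled CPM, bta-miR-486 was at 1153 in NS steer 242 and 804 in SS steer 274. bta-miR-451 was at 297 in NS steer 242 and 96.6 in SS steer 299, and bta-miR-144 at 12.9 and 5.32 in the same libraries. In CPM as deposited, NS steer 242 held 11.8 times the median of the other 8 libraries for bta-miR-451, 10.2 times for bta-miR-144 and 7.14 times for bta-miR-486.

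Leukocyte miRNAs were high in NS steer 242 as well, beyond every other library in their sum, whereas its epithelial and smooth muscle sums lay below the other NS steers but within the range of SS. The part of these cells in the result was not tested. Of 8 leukocyte miRNAs 6 were highest there (4 of 8 after TMM scaling), with a summed abundance of 44745 CPM where the other NS steers had 3800 to 6182 CPM and SS 691 to 20359 CPM. Among them were bta-miR-150 of mature lymphocytes, at 5728 CPM and rank 1 of the 245, and bta-miR-142-5p of hematopoietic cells, at 32085 CPM and rank 4. Of 2 miRNAs of endothelium and platelets, bta-miR-126-3p and bta-miR-126-5p, both were highest there as deposited and neither after TMM scaling. In contrast, all 9 epithelial miRNAs were below the median of the other 8 libraries in NS steer 242, with a sum of 25250 CPM where the other NS steers had 80240 to 134093 CPM and SS 4276 to 401685 CPM. The smooth muscle sum, mostly bta-miR-143, was 306839 CPM where the other NS steers had 501329 to 628409 CPM and SS 222429 to 737154 CPM.

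For striated muscle, the other tissue where miR-486 is found, none of the 4 miRNAs tested was highest in NS steer 242. The sum of bta-miR-1, bta-miR-133a, bta-miR-133b and bta-miR-499, all known from striated muscle, was 501 CPM in NS steer 242 and 1013 to 2047 CPM in the other NS libraries. In SS it was 186 to 2687 CPM. This sum is mostly bta-miR-133a, at 461 CPM in NS steer 242. Both bta-miR-133a and bta-miR-1 are on the smooth muscle list as well, so the sum does not stand for striated muscle alone. The low bta-miR-499 went the other way, at 6.69 CPM there, 1.43 times the median of the other 8 libraries and above the other NS steers, at 1.61 to 4.32 CPM. Of the 7 miRNAs on that list 6 were in the table and 4 passed the filter.

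A wider list of 12 miRNAs that are abundant in red cells but also made by many other cells was less raised there. As deposited, 10 of the 12 were highest in NS steer 242, beside 51.4% of all 245. Their sum was 29147 CPM there, where the other NS steers had 13651 to 22164 CPM and SS 3388 to 22760 CPM. After TMM scaling 6 of the 12 were highest there, beside 22.9% of all 245. Their median was then 0.43 on the log2 scale over the median of the other 8 libraries. The member that stood out most was bta-miR-363, of the miR-106a-363 cluster, at 54.6 CPM where the other NS steers had 5.61 to 18.4 CPM. The most abundant, bta-miR-92a, was at 16267 CPM, within the range of the other NS libraries.

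**Figure D2:**
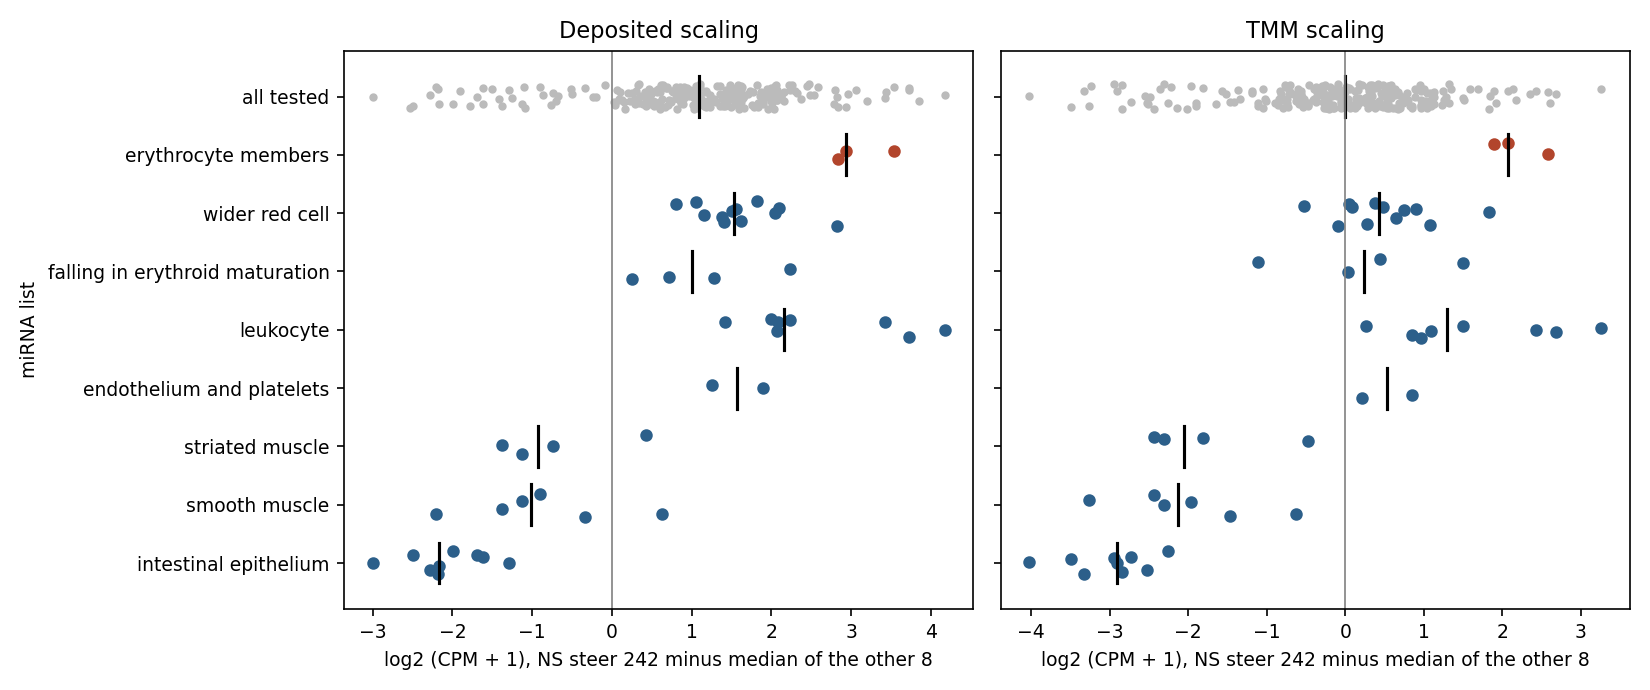
Difference between NS steer 242 and the median of the other 8 libraries in log2(CPM + 1), 1 point per miRNA, by list, with deposited scaling (left) and TMM scaling (right). Black bars are medians, and the 3 erythrocyte miRNAs in red lie to the right in both panels, at 2.83 to 3.54 on the left, while the epithelial and muscle lists lie mostly to the left of 0.

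Across the 9 libraries the 3 members varied together, and this rested mostly on NS steer 242. In a family of 15 correlations of log2(CPM + 1), bta-miR-486 with bta-miR-144 had Pearson's r = 0.94 (exact permutation p = 0.00272, adjusted p = 0.0408) and Spearman's rho = 0.75 (exact permutation p = 0.0255, adjusted p = 0.191). bta-miR-451 with bta-miR-486 had r = 0.91 (exact permutation p = 0.0107, adjusted p = 0.0801) and rho = 0.78 (exact permutation p = 0.0172, adjusted p = 0.191). The genomic neighbours bta-miR-451 and bta-miR-144 had r = 0.85 (exact permutation p = 0.0320, adjusted p = 0.160) and rho = 0.50 (exact permutation p = 0.178, adjusted p = 0.740). Without the 2 libraries farthest from the median on the x axis, NS steer 242 among them each time, r was 0.61, 0.34 and 0.27 in this order. Without NS steer 242 alone r was 0.71, 0.51 and 0.23. The members share the library and its scaling in each point, and bta-miR-144 its low counts.

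**Figure D3:**
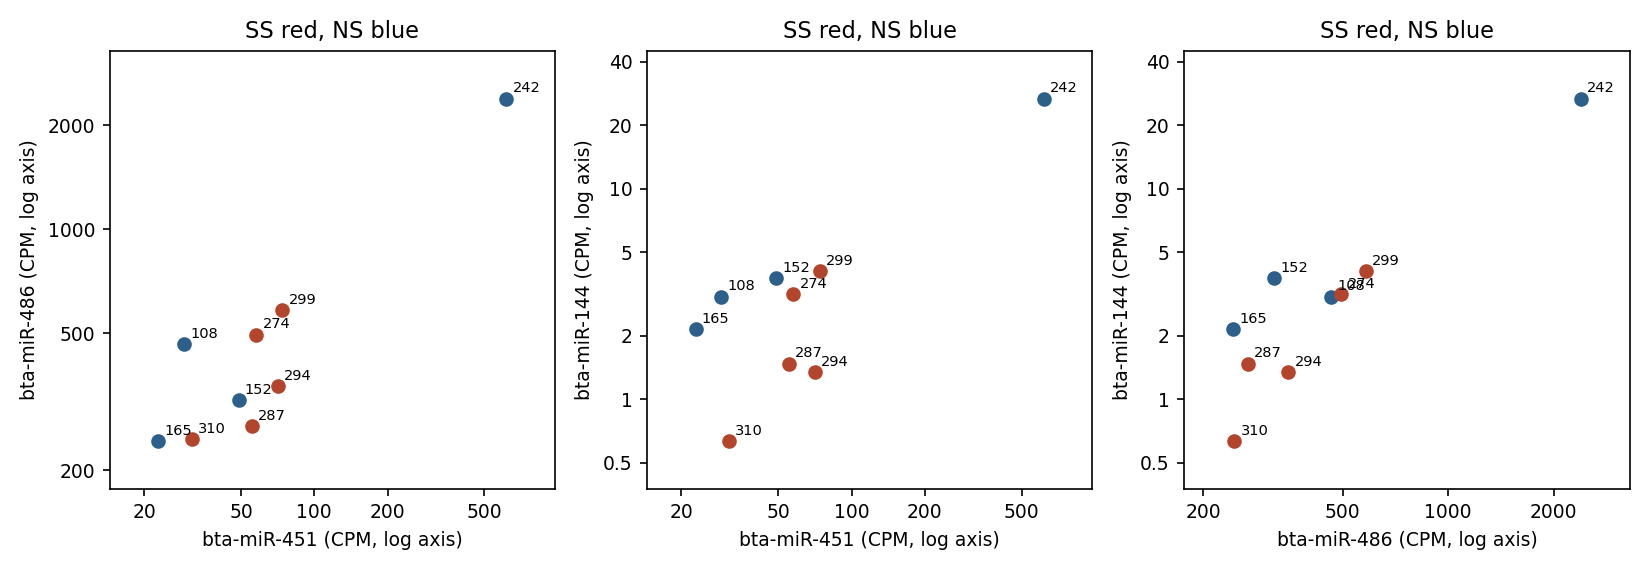
Abundance of each pair of members in CPM on log axes, 1 point per library labelled with the steer number, SS in red and NS in blue. NS steer 242 lies alone at the upper right of each panel, and the other 8 libraries show a looser relation, with r = 0.23 to 0.71 on the log2(CPM + 1) scale.

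None of the members followed the depth or the makeup of the tissue past an adjusted p of 0.05 with deposited scaling. Against the mean of the 8 leukocyte miRNAs, bta-miR-451 had r = 0.62 (exact permutation p = 0.0706, adjusted p = 0.265) and rho = 0.37 (exact permutation p = 0.336, adjusted p = 0.740), and r = 0.10 without NS steer 242 and SS steer 310, the 2 farthest on the leukocyte measure. Against the mean of the 9 epithelial miRNAs, bta-miR-486 had r = -0.35 (exact permutation p = 0.344, adjusted p = 0.514) and rho = -0.32 (exact permutation p = 0.410, adjusted p = 0.740). With TMM scaling this became r = -0.86 (exact permutation p = 0.00219, adjusted p = 0.0179) and rho = -0.95 (exact permutation p = 0.000353, adjusted p = 0.00529), and the scaling enters both measures. With deposited scaling but without SS steers 274 and 310, the 2 farthest on the epithelial measure, it was r = -0.87 (exact permutation p = 0.0204, adjusted p = 0.153), and bta-miR-144 had r = -0.90 (exact permutation p = 0.00952, adjusted p = 0.143). The relation to epithelium thus changed with the scaling and with the libraries used. The other 10 correlations with library total, smooth muscle, epithelium and leukocytes had r from -0.53 to 0.53 as deposited, with adjusted p of 0.330 or more by exact permutation.

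The search for the miRNAs nearest in pattern to each member over the 9 libraries left out the other members. bta-miR-486 and bta-miR-144, at r = 0.94, were closer to each other than to any miRNA searched. Of the 5 nearest to each member, none was on the wider red cell, leukocyte or platelet lists. For bta-miR-451 the 5 of 243 with the highest Pearson's r were bta-miR-26c (0.92), bta-miR-218 (0.92), bta-miR-26a (0.92), bta-miR-2284w (0.87) and bta-miR-199a-5p (0.86), of which bta-miR-26c and bta-miR-26a had nearly the same values. For bta-miR-486 they were bta-miR-26a (0.91), its near copy bta-miR-26c (0.91), bta-miR-30a-5p (0.91), bta-miR-874 (0.83) and bta-miR-218 (0.82). For bta-miR-144 they were bta-miR-665 (0.92), bta-miR-411a (0.90), bta-miR-487b (0.90), bta-miR-218 (0.87) and bta-miR-432 (0.87), which apart from bta-miR-218 belong to the imprinted DLK1-DIO3 cluster in mammals. These likenesses leaned on NS steer 242 too. Without it 2 of the 5 remained among the 5 nearest to bta-miR-451, 3 of 5 for bta-miR-144 and 1 of 5 for bta-miR-486, and the median r of bta-miR-451 with all 243 was 0.45 with it and 0.09 without it.

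A ratio of reads within a library does not depend on how it was scaled, whereas the log2(CPM + 1) ratios that were tested do so through the pseudocount. The ratio of miR-451 to miR-23a, a miRNA little affected by red cell lysis, is in common use as a measure of burst red cells in serum. In reads, bta-miR-451 to bta-miR-23a was 0.669 in NS steer 242, and 0.0392, 0.108 and 0.0563 in NS steers 108, 152 and 165. In SS it was 0.112 in steer 274, 0.0891 in steer 287, 0.145 in steer 294, 0.157 in steer 299 and 0.113 in steer 310. As deposited, the abundance of bta-miR-23a itself ranged from 278.7 to 920.1 CPM, and was highest in NS steer 242. After TMM scaling bta-miR-23a was not highest there, at 0.85 times the median of the other 8 libraries. For bta-miR-486 the ratio to bta-miR-23a was 2.60 in NS steer 242 and 0.433 to 1.24 in the other 8 libraries, and for bta-miR-144 it was 0.0291 against 0.00227 to 0.00867.

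On the log2(CPM + 1) scale these ratios to bta-miR-23a differed between SS and NS by 0.10 for bta-miR-451 (exact permutation p = 0.921), by -0.19 for bta-miR-486 (exact permutation p = 0.786) and by -0.78 for bta-miR-144 (exact permutation p = 0.230), each two-sided over 126 splits, the smallest possible p being 0.00794. For bta-miR-451 NS averaged -3.12 ± 1.80 (SD, n = 4) and SS -3.03 ± 0.32 (SD, n = 5). Without NS steer 242 the difference was 0.94, with SS higher (exact permutation p = 0.0357, unadjusted, the smallest possible there being 0.0179). The sign turned to -0.41 without NS steer 108 and to -0.23 without NS steer 165. That of bta-miR-486 turned to 0.32 without NS steer 242 and to 0.04 without SS steer 287.

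The members did not keep 1 ratio to each other. bta-miR-451 to bta-miR-486 ranged 4.09-fold, from 0.0629 in NS steer 108 to 0.257 in NS steer 242, with SS at 0.116 to 0.206. Its log2 difference between SS and NS was 0.28 (exact permutation p = 0.548). The reads of bta-miR-486 to those of bta-miR-144 were 85.1 to 151 in NS and 143 to 388 in SS, and SS steer 299 alone lay below the highest NS library. On the log2(CPM + 1) scale the ratio was 6.08 to 6.84 in NS and 6.77 to 7.24 in SS, a difference in means of 0.59 (exact permutation p = 0.0159, or 0.0952 adjusted over the 6 ratios). The difference was 0.74 with a pseudocount of 0.5 (exact permutation p = 0.0159) and 0.98 with none (exact permutation p = 0.0317). It rests on 2 to 24 reads of bta-miR-144, and p was 0.0536 without NS steer 152 and 0.0571 without SS steer 274, 294, 299 or 310. For bta-miR-451 to bta-miR-144 the ratio of reads was 9.50 to 23.0 in NS and 18.2 to 52.5 in SS. The log2 difference was 0.87 (exact permutation p = 0.0873, or 0.262 adjusted over the 6 ratios). It was 1.22 without NS steer 242 (exact permutation p = 0.0179, unadjusted and the smallest possible there). With no pseudocount it was 1.27 (exact permutation p = 0.0476, unadjusted).

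**Figure D4:**
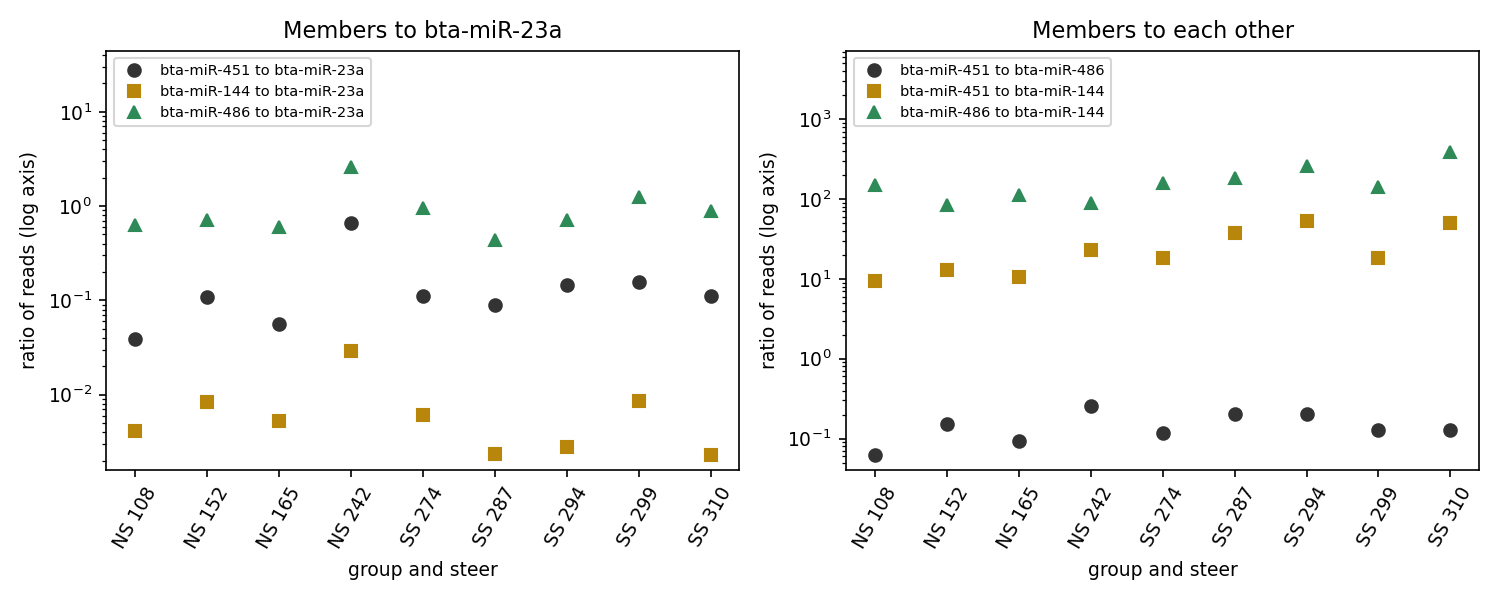
Ratio of reads within each library on log axes, for each member to bta-miR-23a (left) and for the members to each other (right), 1 point per ratio and library. On the left NS steer 242 is highest for all 3 members, at 0.669 for bta-miR-451, and on the right it is highest for bta-miR-451 to bta-miR-486 alone, at 0.257.

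Between SS and NS none of the 3 members passed the thresholds of the study, which ask for a log2 difference beyond 1 either way and an adjusted p below 0.1. In limma 0 of the 246 miRNAs did so (0%, lowest adjusted p = 0.299), and 40 had an unadjusted p under 0.05, or 16.3%, none of them a member. With count models on whole reads, 0 passed in edgeR's quasi-likelihood test (0%), with 26 at an unadjusted p under 0.05, 1 in its exact test (0.407%) and 11 in DESeq2 (4.47%), and again no member was among them. As deposited, SS and NS did not overlap for 6.53% of the 245 miRNAs, also 6.53% without NS steer 242, but they did overlap for each member in both cases.

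For bta-miR-451 NS averaged 179 ± 291 CPM (SD, n = 4) and SS 57.8 ± 16.8 CPM (SD, n = 5). Without steer 242 NS was at 33.6 ± 13.5 CPM (SD, n = 3). The log2 difference, SS minus NS, was -0.28 (SE 0.84, 95% interval -2.12 to 1.56, limma adjusted p = 0.833). Its direction in limma was not stable, at 0.40 with TMM scaling, 0.41 with median-of-ratios scaling and 0.78 without NS steer 242 (limma adjusted p = 0.593). The count models kept it below 0, though edgeR used TMM scaling and DESeq2 median-of-ratios scaling. It was -0.43 in edgeR's quasi-likelihood test, -0.43 in edgeR's exact test and -0.43 in DESeq2. Count models compare mean counts, whereas limma compares means of log2 values. In TMM-scaled CPM the mean of SS was 71.8 ± 23.3 (SD, n = 5). That of NS was 96.6 ± 134 (SD, n = 4), and 29.9 ± 11.6 without steer 242 (SD, n = 3). With TMM scaling in limma and without NS steer 242 the log2 difference was 1.24 (95% interval 0.39 to 2.09, limma adjusted p = 0.258). There the SS libraries, at 45.3 to 96.6 CPM, lay above the 3 NS libraries, at 21.2 to 43.1 CPM, a pattern without overlap that 8.57% of the 245 miRNAs showed.

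For bta-miR-486 NS averaged 855 ± 1028 CPM (SD, n = 4), or 342.5 ± 112 CPM without steer 242 (SD, n = 3), and SS 388.6 ± 146 CPM (SD, n = 5). The log2 difference was -0.56 (SE 0.64, 95% interval -1.97 to 0.84, limma adjusted p = 0.579). It turned to 0.15 without NS steer 242, and to 0.13 with TMM scaling and 0.14 with median-of-ratios scaling.

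For bta-miR-144, which is under the filter and was added to the fit, NS averaged 8.94 ± 11.9 CPM (SD, n = 4), or 3.00 ± 0.80 CPM without steer 242 (SD, n = 3), and SS 2.14 ± 1.42 CPM (SD, n = 5). The log2 difference was -1.15 (SE 0.65, 95% interval -2.58 to 0.27, limma adjusted p = 0.357), and was -0.45 without NS steer 242. It remained below 0 under every scaling and test tried, from -1.30 to -0.12. The intervals of all 3 members allow changes of more than 1 on the log2 scale in at least one direction.

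The scaling moved all miRNAs. As deposited the median of the 245 was -0.70 and 216 were lower in SS, and with TMM scaling it was at -0.04. Measured from the deposited median, bta-miR-451 was at 0.41, bta-miR-486 at 0.13 and bta-miR-144 at -0.46.

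**Figure D5:**
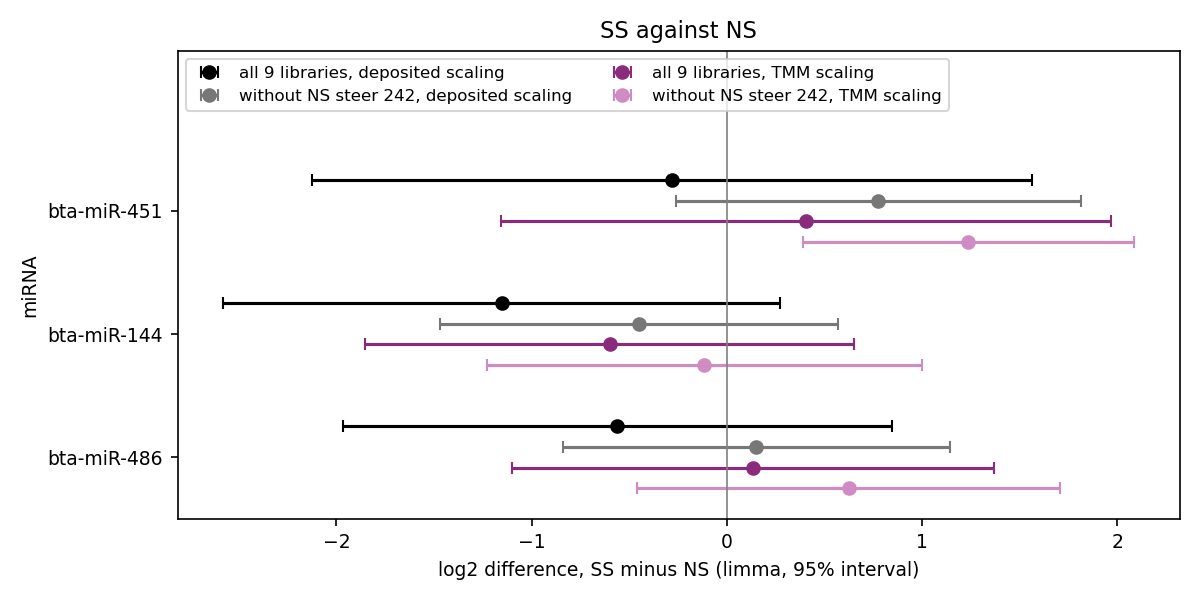
Log2 difference between SS and NS with its 95% interval from limma for each member, with all 9 libraries or without NS steer 242, and with deposited or TMM scaling. The intervals include 0 except that of bta-miR-451 with TMM scaling and without NS steer 242, 0.39 to 2.09, whose adjusted p was 0.258.

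The wider red cell list had 12 of 12 miRNAs lower in SS, beside 216 of all 245. Its median was -0.97, or -0.28 relative to the median miRNA. In limma 0 of the 12 were called and 1 had an unadjusted p under 0.05, beside 16.3% of all 246 miRNAs. Of 4 miRNAs that fall as erythroid cells mature, whose human members miR-221 and miR-222 are known to lower KIT, 3 had lower values in SS, the median being -1.56, or -0.87 relative to the median miRNA. limma called 0 of them, 2 having an unadjusted p under 0.05, beside 16.3% of all 246 miRNAs. Among these bta-miR-222 averaged 466 ± 152 CPM in NS (SD, n = 4) and 168 ± 119 CPM in SS (SD, n = 5). Its log2 difference was -1.79 (limma adjusted p = 0.299), and NS steer 242, at 481 CPM, lay within the other NS steers, at 313 to 670 CPM. The most abundant of the 4, bta-miR-24-3p, went the other way. It averaged 782 ± 95 CPM in NS (SD, n = 4) and 1023 ± 415 CPM in SS (SD, n = 5), a log2 difference of 0.31 (limma adjusted p = 0.622). bta-miR-155 is on this list and on the leukocyte list.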

How the data were processed

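The authors prepared TruSeq small RNA libraries of rectal tissue from 9 steers and counted reads of miRBase miRNAs with the sRNA toolbox. The submitters' processing notes name Bowtie and edgeR, without versions. The deposited values, called CPM or RPM by the authors, are recorded as a signal as deposited, since the columns sum to 1024945 to 1089433. All 9 columns were used. Of the values 100% were whole reads times 1 step per library (tolerance 1e-06 reads), which gave library totals. Groups were taken from the sample titles.

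miRNAs with at least 5 CPM in 4 libraries were tested (245), with bta-miR-144 added (246), on log2(CPM + 1) in limma 3.58.1 (R 4.3.3), trended prior, Benjamini-Hochberg adjustment. edgeR 4.0.16 and DESeq2 1.42.0 on recovered reads, TMM and median-of-ratios scaling, a library total without bta-miR-143, a pseudocount of 0.5, no filter and leaving out each library were alternatives. Ratios were compared by two-sided exact permutation over libraries, and correlations by exact permutation of pairings with adjustment over the 15. Intervals cover counting error only. The miRNAs named are the members, the 5 nearest in pattern to each apart from the members, and list members needed for comparison. bta-miR-363, bta-miR-222 and the leukocyte miRNAs described singly were picked after their values were seen. Members and lists were chosen with earlier results of these data known. On data simulated for SS against NS with 245 miRNAs, 50 of them changed, limma called 78.2% of 4-fold and 94.0% of 8-fold changes. False calls averaged 3.1 and 3.8 in this order. These rates cover the simulated miRNAs as a set and cannot be read as the power for the members. In limma with deposited scaling the SE of the members was 0.64 to 0.84, and power at these SE was not tested. How far the simulation carried the spread of TMM factors in the real libraries, 0.44 to 2.07, is not given.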

Additional observations from a re-analysis of the deposited data

Results flagged for a closer look

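In NS, 1 library lay far from the other 3 for each member. The abundance of bta-miR-451 was 615.6 CPM in NS steer 242 and 22.9 to 48.8 CPM in NS steers 108, 152 and 165. For bta-miR-144 it was 26.8 CPM against 2.16 to 3.76 CPM, and for bta-miR-486 it was 2391 CPM against 243.5 to 464 CPM. The log2 ratio of bta-miR-486 to bta-miR-23a was 1.38 in NS steer 242 against -0.74 to -0.50. The rule asked for a gap to the nearest value above 0.829 of the range in NS. It was applied to CPM for the members and to log2 values for the ratio. A high value meets it more easily in CPM than on the log2 scale. Of 20 groups of values looked at 4 held such a library, where chance was taken as about 1 in 20. The 4 share 1 library and are not independent, and their number cannot be read against that chance. That library was also the highest of the 9 for 126 of the 245 miRNAs, or 51.4%, and how many of the 245 meet the same rule is not given.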

How the results depend on the processing

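No member was called under any alternative run. The directions of bta-miR-451 and bta-miR-486 changed. The log2 difference of bta-miR-451 in limma turned to 0.40 with TMM scaling, 0.41 with median-of-ratios scaling, and 1.24 with TMM scaling and NS steer 242 left out. That of bta-miR-486 turned to 0.13, 0.14 and 0.62, and to 0.027, 0.027 and 0.014 in edgeR's quasi-likelihood test, edgeR's exact test and DESeq2. In the same count tests bta-miR-451 stayed below 0, at -0.43 in each. Leaving out each library in turn gave -0.79 to 0.78 for bta-miR-451, -0.95 to 0.15 for bta-miR-486 and -1.50 to -0.45 for bta-miR-144, with 0 miRNAs called each time. DESeq2 gave bta-miR-144 no adjusted p. The number of miRNAs called was 1 with no filter, 1 in edgeR's exact test and 11 in DESeq2.

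For the log2 ratios, leaving out each library gave -0.039 to 0.62 for bta-miR-451 to bta-miR-486, 0.70 to 1.22 for bta-miR-451 to bta-miR-144 (1.27 with no pseudocount), 0.48 to 0.74 for bta-miR-486 to bta-miR-144 (0.98 with no pseudocount), -0.41 to 0.94 for bta-miR-451 to bta-miR-23a, -1.10 to -0.28 for bta-miR-144 to bta-miR-23a and -0.39 to 0.32 for bta-miR-486 to bta-miR-23a. The sign turned without NS steer 108 for bta-miR-451 to bta-miR-486 (-0.039).

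With TMM scaling the correlation of bta-miR-451 with bta-miR-486 passed (r = 0.84), as did that of bta-miR-486 with epithelium (r = -0.86), and the sign turned for library total with bta-miR-451 (r = 0.10) and bta-miR-486 (r = 0.13), and for bta-miR-486 with smooth muscle (r = 0.22) and leukocytes (r = -0.15). Without the 2 libraries farthest on x, bta-miR-486 with bta-miR-144 no longer passed (r = 0.61), and the sign turned for smooth muscle with bta-miR-144 (r = 0.19) and bta-miR-486 (r = 0.56), and for leukocytes with bta-miR-144 (r = -0.65) and bta-miR-486 (r = -0.40). With NS steer 242 left out, chosen after seeing the data, bta-miR-486 with bta-miR-144 was at r = 0.71 and no longer passed, and bta-miR-451 with library total (r = 0.15) and epithelium (r = 0.0048), bta-miR-144 with smooth muscle (r = 0.38), and bta-miR-486 with smooth muscle (r = 0.29) and leukocytes (r = -0.016) turned. The causes were not tested. No paired analysis was possible because SS and NS share 0 steer numbers.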
